A study of Mus musculus with 6 samples.

Results

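The dual oxidase genes Duox1 and Duox2, their maturation factor genes Duoxa1 and Duoxa2, and the nearby gene AA467197 were examined in RNA sequencing of mouse corneal epithelium. These 5 genes were taken by symbol from a table of 25006 genes, and all 5 were among the 12847 genes with enough counts to be tested. They were chosen by name with earlier results of the same counts in view, and AA467197 was selected on its higher counts in the libraries labelled EphA2 null once the numbers in the sample titles entered the model. Differences between the genotypes are therefore given as a description, and the calls printed for them support nothing. Total RNA came from epithelial sheets of wild type mice (3 libraries) and of mice labelled EphA2 null (3 libraries). EphA2 is a receptor tyrosine kinase. The labels name no strain, age, kind of null allele or animal behind a sample, so p-values measure only how these samples vary, and that may be technical. Wild type 1 and 2 share a number in their titles, as do the second and the third library labelled EphA2 null. The latter 3 libraries are written below as null-labelled 1, 2 and 3.

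Total counts ran from 15308013 to 27586942 per library. The level of Epha2 did not show the labelled genotype, being 298, 253 and 563 CPM in wild type 1, 2 and 3, against 285, 653 and 578 CPM in null-labelled 1, 2 and 3. CPM is the depth-scaled count, with library totals adjusted by TMM. Counts per gene do not show which exons were read, and each genotype direction rests on the label alone. Wild type 1 and 2 and null-labelled 1 have lower title numbers, and wild type 3 and null-labelled 2 and 3 have higher ones. What the numbers stand for is not stated, and the libraries separated by them, so a range term (lower or higher title number) was also added to the models. Markers of the corneal epithelium were abundant, with Krt12 at 14600 ± 1340 CPM and Krt5 at 27000 ± 3140 CPM (SD, n = 6), while the keratocyte genes Kera and Lum had 0 counts.

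DUOX1 and DUOX2 are membrane NADPH oxidases that release hydrogen peroxide at the outer face of epithelial cells, and calcium switches them on through EF hands. Each needs a partner, DUOXA1 or DUOXA2, to leave the endoplasmic reticulum. DUOX2 and DUOXA2 supply hydrogen peroxide for thyroid hormone synthesis and are induced at mucosal surfaces during defence, whereas DUOX1 is known from airway and skin epithelium and from wound responses. AA467197, also called Nmes1 and known in humans as C15orf48, encodes a small mitochondrial protein related to NDUFA4, a subunit of cytochrome c oxidase, and its transcript carries the microRNA Mir147.

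On chromosome 2 of GRCm38 the order was Duox2 (ENSMUSG00000068452, 122279247 to 122298449, minus strand), Duoxa2 (ENSMUSG00000027225, 122298900 to 122302885, plus strand), Duoxa1 (ENSMUSG00000027224, 122302191 to 122313730, minus strand) and Duox1 (ENSMUSG00000033268, 122315672 to 122347972, plus strand). The 4 genes filled 68.7 kb. Each oxidase gene stood head to head with its maturation factor gene, with 450 bases between the annotated starts of Duox2 and Duoxa2 and 1941 bases between those of Duoxa1 and Duox1. AA467197 (ENSMUSG00000033213, 122636986 to 122641191, plus strand) began 289.0 kb beyond the end of Duox1. The 3′ ends of Duoxa1 and Duoxa2 ran into each other on opposite strands. They shared 682 exonic bases, 42.8% of the exon length of Duoxa2 and 17.1% of that of Duoxa1. The strand setting of the counting is not known, so reads from the shared stretch cannot be assigned to a strand, and the levels of both genes carry that uncertainty. In the RefSeq gene spans Duoxa1 and Duox1 also overlapped, by 754 bases.

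The upstream sequences of 3 members are shown, those whose windows held a searched motif. Of these, Duoxa2 and AA467197 differed between the title numbers in these libraries and Duoxa1 did not pass that test. Duox2 differed too and Duox1 did not pass, and neither had a match. The sequences come from RefSeq (GRCm38.p6), read 5′ to 3′ on the gene's strand, with searched motifs in capitals. For Duoxa2 and Duoxa1 they are the 250 bases before the start, at chr2:122298650-122298899 and chr2:122313731-122313980. For AA467197 it is the 95 bases of the window before the RefSeq start that lie between annotated exons, at chr2:122637755-122637849.
Duoxa2 (plus strand): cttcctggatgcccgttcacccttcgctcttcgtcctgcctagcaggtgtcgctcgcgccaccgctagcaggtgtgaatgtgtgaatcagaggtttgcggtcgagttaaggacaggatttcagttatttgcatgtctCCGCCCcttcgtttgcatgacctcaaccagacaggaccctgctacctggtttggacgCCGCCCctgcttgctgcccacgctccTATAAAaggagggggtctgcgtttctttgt
Duoxa1 (minus strand): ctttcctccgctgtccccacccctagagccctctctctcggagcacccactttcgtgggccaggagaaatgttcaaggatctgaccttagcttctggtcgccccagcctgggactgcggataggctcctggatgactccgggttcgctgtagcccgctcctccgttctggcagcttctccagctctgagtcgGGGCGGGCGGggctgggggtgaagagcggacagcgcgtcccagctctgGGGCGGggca
AA467197 (plus strand): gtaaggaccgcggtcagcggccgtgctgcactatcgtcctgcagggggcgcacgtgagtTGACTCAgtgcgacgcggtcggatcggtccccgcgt
Both strands of the 250 bases before each start were searched for the TATA box core TATAAA, the AP-1 motif TGACTCA, the GC box GGGCGG, the STAT motif TTCNNNGAA and the NF-kB consensus. The Duoxa2 window held TATAAA from 30 to 25 bases before the start, a motif found in 12.4% of 32851 windows, and 2 GC boxes on the other strand. The Duoxa1 window held 3 GC boxes, 2 of them overlapping, and GC boxes occurred in 32.7% of all windows. The AA467197 window held TGACTCA from 73 to 67 bases before the RefSeq start, a motif found in 4.46% of windows. None of the 5 motifs was found in the windows of Duox1 and Duox2. The Duox2 window, chr2:122298228-122298477, precedes the RefSeq start. Most of it lies inside the GENCODE span, which runs to 122298449, so bases before that start were largely not searched. The windows of Duoxa1 and Duox1 adjoin their GENCODE starts. Their RefSeq spans overlap and so reach further, and bases before any other start were not searched. The STAT motif (7.02% of windows) and the NF-kB consensus (3.90%) were in none of the 5 windows. A match is a description of the letters only.

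AA467197 was the most abundant of the 5 genes per length and Duox2 the least. As levels per kb of exon, averaged over the 6 libraries, AA467197 stood at 30.0 ± 16.4 CPM per kb, Duoxa1 at 7.50 ± 1.10, Duox1 at 3.73 ± 0.709, Duoxa2 at 0.999 ± 0.839 and Duox2 at 0.542 ± 0.252 (SD, n = 6). The median of the tested genes was 5.45 CPM per kb, and 89.3% of them lay below AA467197, 59.0% below Duoxa1, 40.6% below Duox1, 18.1% below Duoxa2 and 11.7% below Duox2. If reads in the stretch shared with Duoxa1 went uncounted, the level of Duoxa2 over its other 910 bases would be 1.75 CPM per kb. Neighbours in this order did not overlap over the libraries, apart from Duoxa2 and Duox2.

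The DUOX1 pair stood above the DUOX2 pair per length. The ratio of Duox1 to Duox2 per length was 8.06, 4.82 and 21.4 in wild type 1, 2 and 3, against 3.15 and 6.86 in null-labelled 1 and 2, and null-labelled 3 lay between wild type 1 and 3, so Duox1 exceeded Duox2 in each of the 6. The ratio of Duoxa1 to Duox1 was steadier, at 2.02, 2.13 and 1.76 in wild type, against 2.83, 1.83 and 1.77 in the null-labelled libraries, with null-labelled 1 the highest. Duox1 and Duox2 are related in sequence, and reads that match both can be split in a way that is not known here.

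Duox1, the first of the oxidases, was lower in each null-labelled library than in each wild type library. It stood at 22.4, 21.6 and 23.6 CPM in wild type 1, 2 and 3, against 13.4, 18.6 and 18.1 CPM in null-labelled 1, 2 and 3. The wild type libraries lay close together, and null-labelled 1 was the lowest of the 6. As a log2 fold change (null-labelled over wild type) the difference was -0.43 ± 0.17 (SE, n = 3 per group) with genotype as the only term. It was -0.72 ± 0.17 among lower and -0.36 ± 0.16 among higher title numbers. Within a range 1 library stands against 2 that share a title number. There the SE, here and below, covers only the spread of libraries with the same number.

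Duoxa1, which encodes the partner of DUOX1, had the same order of groups with smaller steps. It stood at 34.1, 34.8 and 31.4 CPM in wild type 1, 2 and 3, against 28.6, 25.8 and 24.2 CPM in null-labelled 1, 2 and 3, so the groups did not overlap. The log2 fold change was -0.35 ± 0.14 (SE, n = 3 per group), with -0.27 ± 0.15 among lower and -0.33 ± 0.15 among higher title numbers. With the range term in the model it was -0.30 ± 0.10, against -0.54 ± 0.12 for Duox1.

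**Figure D1:**
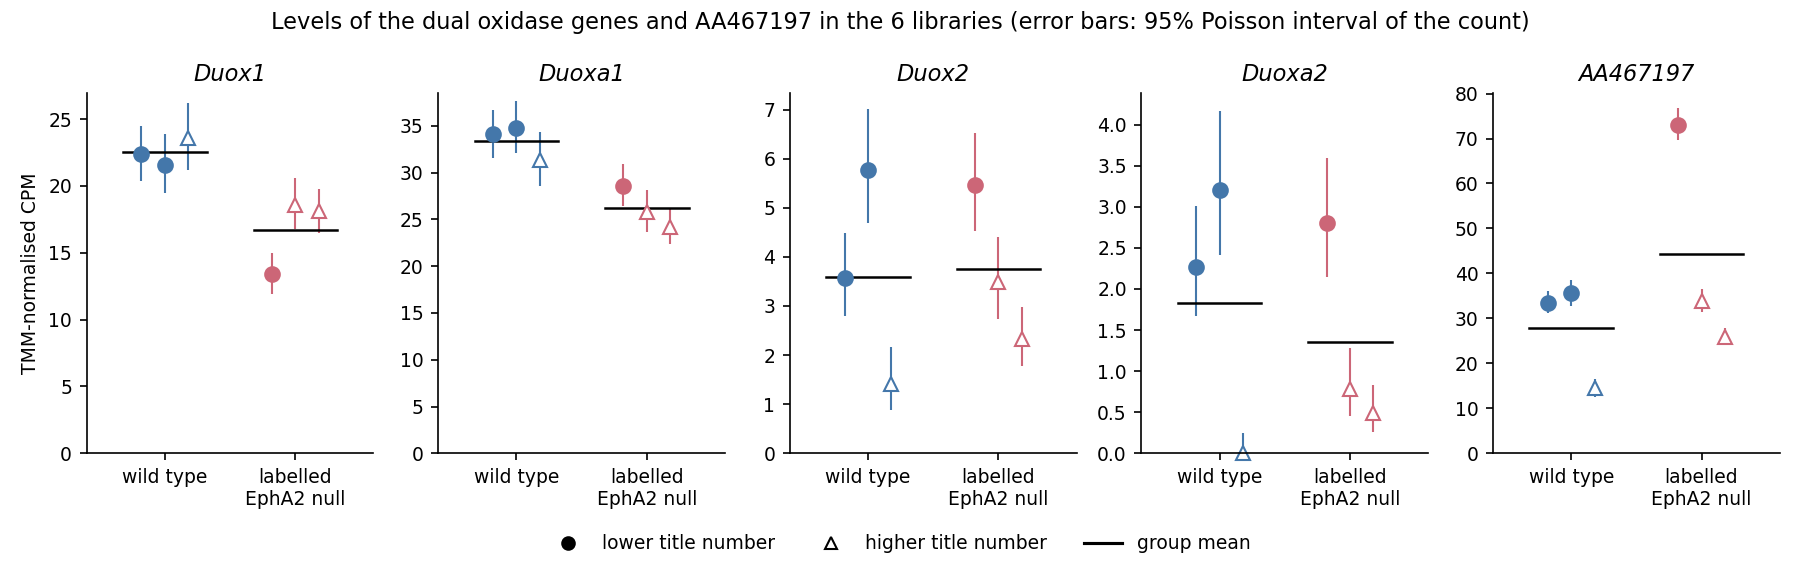
Level of each gene (TMM-normalised CPM, linear axis from 0) in the 3 wild type libraries and the 3 null-labelled libraries, as filled circles for lower and open triangles for higher title numbers; error bars are 95% Poisson intervals of the count, which cover counting error only, and lines are group means. Duox1 and Duoxa1 separate by genotype label, Duox2 and Duoxa2 by title number, and AA467197 is ordered by genotype label within each kind of symbol.

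Duox2, the inducible oxidase, followed the title numbers. It stood at 3.57, 5.77 and 1.42 CPM in wild type 1, 2 and 3, against 5.46, 3.49 and 2.32 CPM in null-labelled 1, 2 and 3. The 3 libraries with lower title numbers (3.57 to 5.77 CPM) lay above the 3 with higher ones (1.42 to 3.49 CPM), by a narrow margin, and wild type 3 was the lowest. Counts behind these levels were 21 to 119 per library. The log2 fold change between the genotypes was 0.06 ± 0.52 (SE, n = 3 per group) with genotype alone, 0.23 ± 0.39 among lower and 1.02 ± 0.49 among higher title numbers, where the wild type side is wild type 3 alone.

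Duoxa2, the partner of Duox2, showed the same split with a wider gap. Its counts were 47, 55 and 0 in wild type 1, 2 and 3, against 61, 16 and 13 in null-labelled 1, 2 and 3. As levels these were 2.27, 3.20 and 0 CPM in wild type, against 2.80, 0.787 and 0.485 CPM in the null-labelled libraries. The lower title numbers stood at 2.27 CPM or more and the higher ones at 0.787 CPM or less, so those groups did not overlap, whereas the genotypes did. The count of 0 in wild type 3 allows up to 0.203 CPM at a floor of 3 counts, and the 95% Poisson interval in the plot of levels reaches 0.249 CPM. Summed and adjusted for depth, Duoxa2 was 5.83-fold higher at lower than at higher title numbers (163 against 29 counts, 95% counting interval 3.91 to 8.98). Within wild type it was 13.3-fold higher with wild type 3 set at the 3-count floor (102 against 0 counts, lower 95% counting limit 10.6). It was higher within the null-labelled libraries by 4.54-fold (61 against 29 counts, 95% counting interval 2.88 to 7.34). Between the genotypes the ratio was 1.04 at lower title numbers (61 against 102 counts, 95% counting interval 0.744 to 1.44). At higher title numbers the null-labelled libraries were 3.04-fold higher than wild type 3 set at the same floor (29 against 0 counts, lower 95% counting limit 2.32).

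AA467197 varied with the title numbers and, within each range, with the genotype label, in the opposite direction to Duox1 and Duoxa1. It stood at 33.5, 35.6 and 14.5 CPM in wild type 1, 2 and 3, against 73.1, 33.8 and 25.9 CPM in null-labelled 1, 2 and 3. The library labelled EphA2 null 1 was the highest and wild type 3 the lowest, and the groups overlapped by genotype and by title number. Set side by side within the lower title numbers, null-labelled 1 had 73.1 CPM against 33.5 and 35.6 CPM in wild type. Within the higher ones the null-labelled libraries had 33.8 and 25.9 CPM against 14.5 CPM in wild type 3. The log2 fold change between the genotypes was 1.08 ± 0.18 among lower and 1.04 ± 0.20 among higher title numbers (SE), or 2.12-fold and 2.05-fold. Each sets 1 library against 2 that share a title number, so these SE cover only the spread of libraries with the same number. With genotype alone the log2 fold change was 0.66 ± 0.46 (n = 3 per group), which fell to 0.09 without null-labelled 1 and to 0.35 without wild type 3. With the range term it was 1.06 ± 0.13. The change in the genotype difference from lower to higher title numbers, an interaction term in edgeR, had an adjusted p of 0.999 for AA467197 and for each of the other 4, which does not show that the differences are equal. A log2 fold change above 1 within both ranges was found for 0.148% of the tested genes (19 of 12847). AA467197 is among them, but it was selected on this difference, so nothing is read from that. With the range term all 6 conjunctival markers also lay above 0 between the genotypes (median log2 fold change 0.20, 0 of 6 called). With genotype alone 3 lay above and 3 below 0 (median 0.01). The goblet cell mucin gene Muc5ac had 1.43 ± 0.67 with the range term. Muc5ac and Krt13 were highest, like AA467197, in null-labelled 1. Krt19, Krt7 and Krt8 were highest in wild type 1 and Krt4 in null-labelled 2. The summed level of the 6 markers was 3680 to 5920 CPM in wild type and 3300 to 6320 CPM in the null-labelled libraries. Of the 8 tested leukocyte markers 2 lay above and 6 below 0 (median -0.24). The part of such cells in the value of AA467197 was not tested.

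The microRNA Mir147 lies inside an exon of AA467197 on the same strand, at chr2:122640803-122640881. Its own row had 0 counts in each library, so the counts say nothing on the processed microRNA. Its 5′ mature form in RefSeq is shown because it shares the exon whose counts are described here, with the seed (bases 2 to 8) in capitals.
mmu-miR-147-5p: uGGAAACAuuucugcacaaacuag

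**Figure D2:**
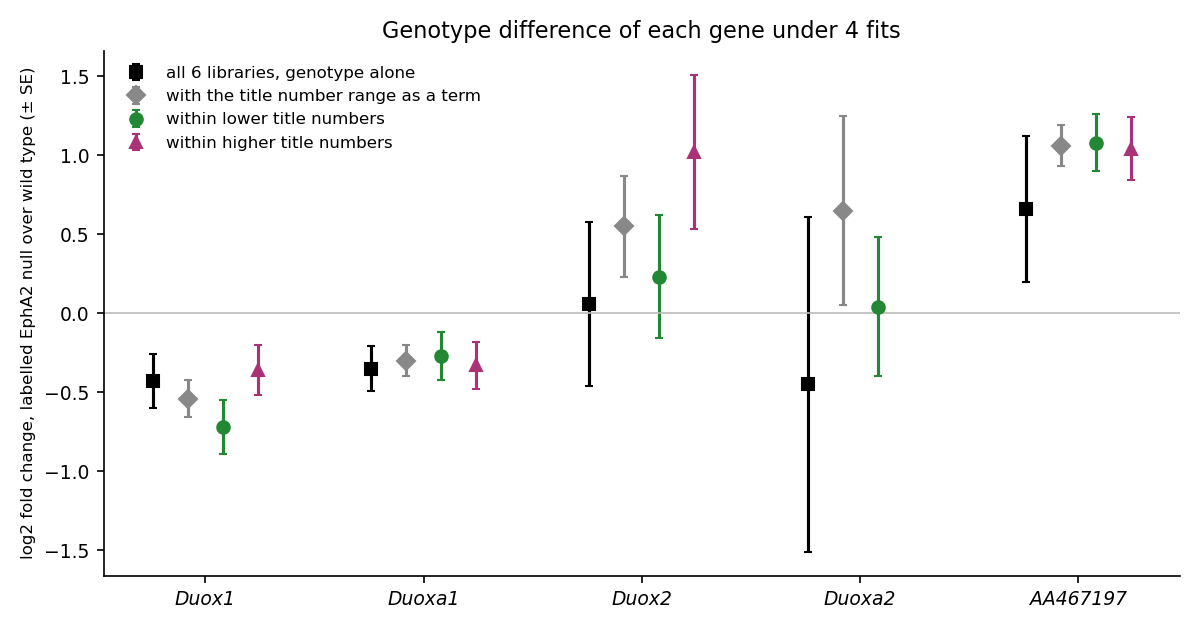
Log2 fold change of each gene, null-labelled over wild type (vertical axis), with its SE, from genotype alone, with the range term, and within the lower and the higher title numbers; the value of Duoxa2 within the higher title numbers is left out because wild type 3 had 0 counts. Duox1 and Duoxa1 lie below 0 in each of the 4 fits, and AA467197 stands at 0.66 with genotype alone and between 1.04 and 1.08 in the other 3. Within a range the SE covers only the spread of libraries that share a title number.

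In edgeR's quasi-likelihood test with genotype alone, 0 of the 5 genes passed an adjusted p of 0.05, beside 0.00778% of all tested genes (1 of 12847), and 2 of the 5 had an unadjusted p under 0.05, beside 1.18% of all. DESeq2 with genotype alone called 0 of the 5 as well, beside 0.0272% of all, again with 2 at an unadjusted p under 0.05, beside 0.892% of all. With the range term edgeR called 0 of the 5, beside 0.00778% of all, with 3 at an unadjusted p under 0.05 beside 3.87% of all. DESeq2 with that term called 1 as higher, AA467197, which had been selected on this same difference, beside 0.0433% of genes called higher and 0.123% called either way. So did edgeR with that term and no filter on low counts, a setting added after seeing the data, beside 0.19% called higher and 0.37% either way. The genotype groups did not overlap for 2 of the 5 genes, Duox1 and Duoxa1, both lower, beside 2.02% of all tested genes that were lower without overlap and 3.73% in either direction. Since the genes were picked with this contrast known, nothing is read from these shares.

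Between the title numbers, with genotype as a term, 3 of the 5 genes passed edgeR's test, all lower at higher numbers, beside 20.1% of all tested genes called lower and 44.7% called in either direction. A share of that size over all genes makes such a call common. The log2 fold changes, higher over lower title numbers, were -1.24 ± 0.32 for Duox2, -2.91 ± 0.61 for Duoxa2 and -1.27 ± 0.13 for AA467197 (SE, n = 3 per range). The call of Duox2 was lost without wild type 3 (-0.94) and without null-labelled 1 (-1.71), and the value of Duoxa2 was -2.17 without wild type 3. Without null-labelled 1 the model compares Duoxa2 between the ranges within wild type alone, against the count of 0, and gives no usable size. Duoxa1 (-0.16 ± 0.10) and Duox1 (0.28 ± 0.12) did not pass. For AA467197 the difference was -1.25 ± 0.20 within wild type and -1.29 ± 0.18 within the null-labelled libraries. The title number groups did not overlap for Duox2 and Duoxa2, beside 28.8% of all tested genes that were lower without overlap and 59% in either direction.

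**Figure D3:**
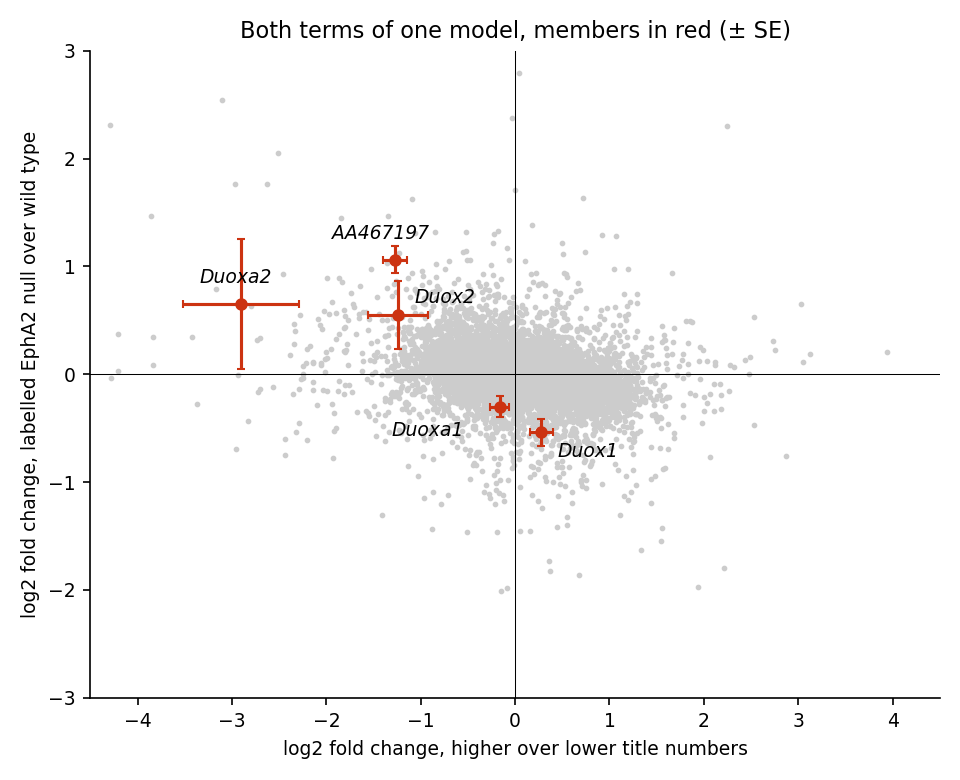
Log2 fold change between higher and lower title numbers (horizontal) against that between null-labelled libraries and wild type (vertical), both from 1 edgeR model with both terms, for all tested genes (grey; 8 lie outside the axes) and the 5 genes (red, with SE). Duox2, Duoxa2 and AA467197 lie at the upper left and Duox1 and Duoxa1 below 0 on the vertical axis; the axes share libraries, so the grey cloud's tilt is not a result.

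Markers of other cell types were read against the same background, 20.1% of all tested genes called lower and 44.7% either way between the title numbers. Of 11 leukocyte markers 8 were tested and 6 were lower at higher title numbers, among them H2-Aa, an antigen presentation gene, at 11.7, 5.71 and 8.07 CPM in the lower and 1.76, 0.984 and 0.710 CPM in the higher title numbers. The summed level of the 11 was 313 to 356 CPM in the lower and 302 to 350 CPM in the higher title numbers, most of it from Itgam. Of 6 conjunctival markers 2 were called, both lower (Krt7 and Muc5ac). All 6 lay below 0 between the title numbers, with a median log2 fold change of -0.62, beside -0.01 over all tested genes. Their summed level was 4920 to 6320 CPM in the lower and 3300 to 6030 CPM in the higher title numbers. Muc5ac, the mucin of conjunctival goblet cells, stood at 38.5, 5.24 and 58.8 CPM in wild type 1 and 2 and null-labelled 1, and at 0.675, 2.21 and 1.68 CPM in the other 3. The 7 keratocyte markers summed to 0.367 to 2.30 CPM over the 6 libraries, and the 5 of endothelium and nerve to at most 3.90 CPM. Fewer cells of a type and less RNA per cell cannot be told apart in bulk RNA, and the part of such cells in the levels of Duox2, Duoxa2 and AA467197 was not tested.

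Across the 6 libraries the log2 CPM of Duox2 ran with that of Duoxa2 (Pearson r = 0.959) and of AA467197 (r = 0.879), while Duox1 ran with Duoxa1 at r = 0.534 and against AA467197 at r = -0.795. These are descriptions over n = 6 libraries that share the split by title number. The genes most like AA467197 were Abhd14a (r = 0.999), Rad51b (r = 0.995) and Vdac3 (r = 0.993), out of 66 genes with r of at least 0.95 among 12842. With the mean of each title number range removed they were Abhd14a (r = 0.998), Slc35b3 (r = 0.995) and Vdac3 (r = 0.994). Abhd14a stood at 4.92, 5.13 and 3.78 CPM in wild type, against 6.47, 4.97 and 4.63 CPM in the null-labelled libraries, the same order of the 6 libraries as AA467197 with a smaller span. The genes most like Duox1 were Gja4, a connexin gene (r = 0.997), Ube2e2 (r = 0.982) and Rps13 (r = 0.980), and 7 genes had r of at least 0.95. For Duoxa1 they were E330011O21Rik (r = 0.991), Atp5l (r = 0.990) and Nadk, an NAD kinase gene whose product makes NADP (r = 0.988). For Duox2 they were Wtap (r = 0.997), Sccpdh (r = 0.996) and Emg1 (r = 0.995), among 150 genes with r of at least 0.95. For Duoxa2 they were Selenoh (r = 0.993), Ndufa4 (r = 0.993) and Tatdn3 (r = 0.992), among 200. Levels were low for Gja4 (0.642 to 1.35 CPM), E330011O21Rik (1.23 to 1.93 CPM) and Atp5l (1.16 to 2.45 CPM), so counting error weighs on their r.

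Genes around the members were read from the same fit. Within 0.5 Mb of the stretch from Duox2 to AA467197, 30 other genes are annotated, of which 18 were in the table and 10 were tested. None of the 10 was called between the genotypes in edgeR, with or without the range term, and 5 were called between the title numbers, all lower at higher numbers, beside 20.1% of all tested genes called lower and 44.7% called either way. With the range term, 5 of the 10 lay above 0 and 5 below between the genotypes, with a median log2 fold change of -0.01, beside a median of 0 over all tested genes. Sord, the sorbitol dehydrogenase gene that borders Duox2, had the smallest unadjusted p of the 10 and was not called, with a log2 fold change of 0.55 ± 0.09 (SE), 0.56 among lower and 0.54 among higher title numbers. It stood at 43.8, 49.5 and 32.6 CPM in wild type 1, 2 and 3, against 68.9, 47.4 and 47.6 CPM in null-labelled 1, 2 and 3, with the same highest and lowest libraries as AA467197. Eif3j1, a translation initiation factor gene, had 0.72 ± 0.21 with the term and Casc4 0.43 ± 0.15. Shf, which borders Duox1 on the other side, had -0.27 ± 0.25. Slc30a4, a zinc transporter gene beyond AA467197, had -0.34 ± 0.10. In edgeR with the range term the unadjusted p was 0.000289 for Sord, 0.00786 for Eif3j1, 0.00835 for Slc30a4 and 0.0175 for Casc4. It was above 0.05 for the other tested neighbours, and under 0.05 for 3.87% of all tested genes. Gatm, between Duox1 and AA467197, had 28 counts in all and was not tested. Beyond Duox1 the 4 tested neighbours all lay below 0 and AA467197 above, and on the side of Duox2 5 of 6 lay above 0. Several were within 1 SE of 0: Sqor (-0.05 ± 0.26), Ctdspl2 (0.03 ± 0.12), Spg11 (-0.04 ± 0.10) and B2m (0.14 ± 0.40). Over all tested genes 6398 lay above 0 and 6449 below, and no pattern by position is read from the signs.

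**Figure D4:**
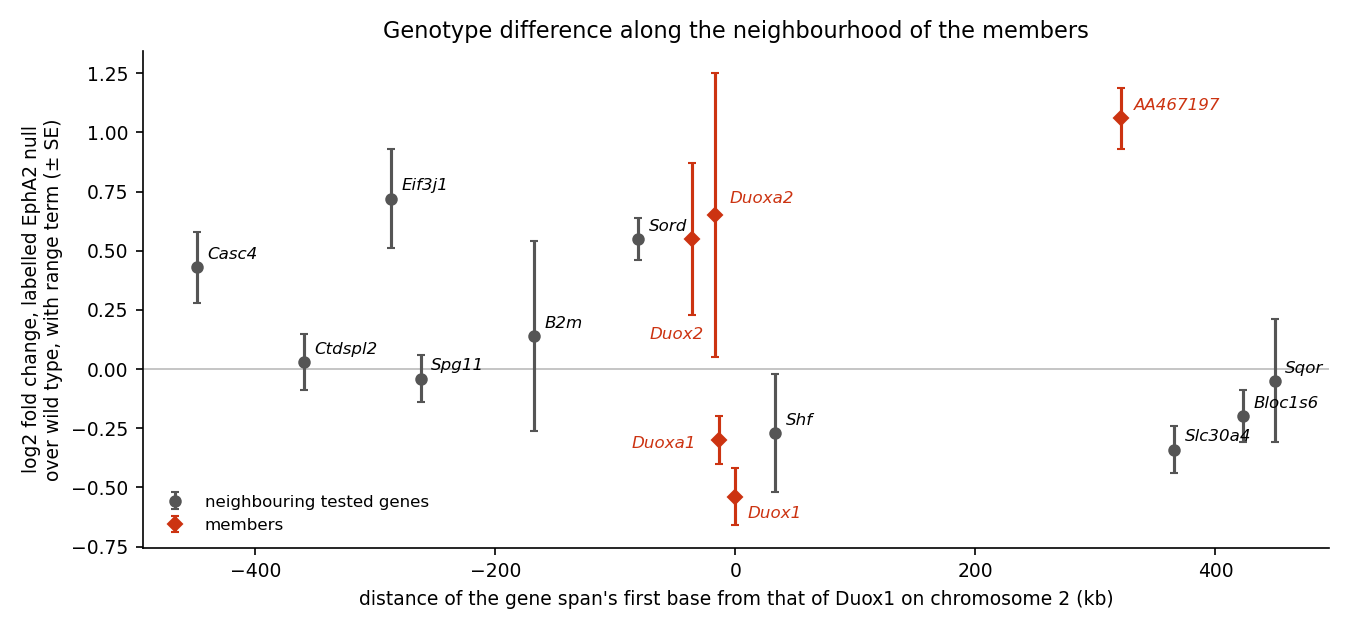
Log2 fold change between null-labelled libraries and wild type, with the range term and its SE (vertical), against the distance of each gene from Duox1 on chromosome 2 in kb (horizontal), for the 10 tested neighbours (grey circles) and the 5 members (red diamonds). AA467197 at 1.06 and Duox1 at -0.54 are the extremes, and Sord at 0.55 lies beside Duox2.

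Most other NADPH oxidase genes had low levels. Of 12 listed genes, 7 were tested and 0 were called between the genotypes. The median log2 fold change was -0.04 with genotype alone, beside 0.01 over all tested genes, and -0.1 with the range term. Per kb the highest were Rac1, the small GTPase of the oxidase complex, at 42.4 CPM per kb, Cyba, the p22phox subunit, at 1.01 CPM per kb, and Nox4, a constitutive oxidase, at 0.894 CPM per kb. Duox1 (3.73 CPM per kb) was above each listed catalytic subunit, and Nox3 had 0 counts. Between the title numbers 2 of the 7 were called higher at higher numbers, Rac1 (log2 fold change 0.41) and Noxo1 (1.58). Called lower were 2, Nox4 (-0.58) and Cybb (-2.72), the phagocyte oxidase (median of the 7 tested -0.44). Over all tested genes 20.1% were called lower and 44.7% either way, so such calls are common.

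Enzymes that make, use or remove hydrogen peroxide were led by Prdx5 at 287, Gpx1 at 211 and Prdx6 at 205 CPM per kb. Of 19 listed, 14 were tested and 0 were called between the genotypes. With genotype alone 3 lay above and 11 below 0 (median log2 fold change -0.06). With the range term 10 lay above and 4 below (median 0.05). Between the title numbers 7 were called lower and 0 higher (median -0.42, beside -0.01 over all tested genes). Over all tested genes 20.1% were called lower and 44.7% either way. The 7 were Gpx1, Prdx1, Prdx2, Prdx3, Prdx4, Prdx5 and Sod1, from -0.31 for Prdx5 to -0.89 for Prdx4. Counts in all were 259 for the peroxidase gene Pxdn, 77 for Lpo, 21 for Gpx3 and 1 for Mpo. The thyroid genes that work beside DUOX2 were near the floor: none of 7 was tested, Tg had 47 counts over the 6 libraries, the iodide transporter gene Slc5a5 54 and the thyroid factor gene Nkx2-1 had 0.

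Of 28 epithelial defence genes and receptors known to accompany Duox2 or AA467197, 22 were tested, and 0 were called between the genotypes. The median log2 fold change was 0.09 with genotype alone and 0.02 with the range term. Between the title numbers 5 were higher (S100a8, Zc3h12a, Stat3, Il17ra and Il17rc) and 4 lower (Lcn2, S100a9, Il1b and Il1rn), with a median of 0.14 over the 22, a share called that is near the 44.7% of all tested genes. Lcn2, an iron-binding defence protein gene, had a log2 fold change of -1.27 ± 0.44 and Stat3 0.91 ± 0.14. Per kb the highest were Nfkbia at 39.9, Stat6 at 35.6 and Il1a at 35.0 CPM per kb. The inducible genes Nos2 and Saa3 had 3 counts each over the 6 libraries.

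The cytochrome c oxidase genes encode the complex whose NDUFA4 subunit is related to the AA467197 protein. Of 17 listed, 14 were tested and 0 were called between the genotypes. With genotype alone 3 lay above and 11 below 0 (median log2 fold change -0.04). With the range term 9 lay above and 5 below (median 0.08). Between the title numbers 8 were lower and 0 higher (median -0.35), beside 20.1% of all tested genes called lower and 44.7% either way: Ndufa4, Cox6b1, Cox6c, Cox7a2, Cox7a2l, Cox7b, Cox7c and Cox8a. Cox6b1 at 228, Ndufa4 at 197 and Cox4i1 at 136 CPM per kb led the list. Ndufa4 stood at 325, 320 and 177 CPM in wild type 1, 2 and 3, against 328, 257 and 229 CPM in null-labelled 1, 2 and 3. Its log2 fold change was -0.65 ± 0.12 between the title numbers and 0.24 ± 0.12 between the genotypes with the range term, beside -1.27 and 1.06 for AA467197. Per kb Ndufa4 (197) exceeded AA467197 (30.0).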

How the data were processed

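RNA sequencing counts of 6 corneal epithelium samples were analysed. The deposited values are raw counts per Ensembl gene, whole numbers with a different total in each sample. The aligner, counter, strand setting, build and annotation behind them are unknown, as the sources used here do not give them. Columns were matched to samples by title, and 0 columns were of other samples. Names, positions and exon lengths came from GENCODE M21 (GRCm38), which holds 24991 of the 25006 identifiers, and was not checked against the annotation used for counting.

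edgeR 4.0.16 in R 4.3.3 (filterByExpr, TMM, glmQLFit, glmQLFTest) was fitted on the whole table, with Benjamini-Hochberg adjustment over 12847 genes and calls at an adjusted p under 0.05. The models held genotype, genotype with the range term, or 1 mean per genotype and range. SE is the size of the log2 fold change divided by the square root of F. With 1 mean per genotype and range, residual spread comes only from libraries that share a title number. Alternatives were DESeq2 1.42.0 and voom from limma 3.58.1. Like genes are the 3 with the highest Pearson r of log2 CPM (prior count 3). The 5 genes, the lists and the rules for naming genes were chosen with earlier results of these data known; lists name the 3 highest genes per kb and those called, and neighbours within 0.5 Mb are named where they border a member or have the smallest genotype p with the range term. Other list genes and markers named were chosen after their values were seen. Intervals and the 3-count floor cover counting error only.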

Additional observations from a re-analysis of the deposited data

How the results depend on the processing

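No paired analysis was possible because the labels give no replicate numbers and only 1 title letter, N, occurs in both groups; the range term sets ranges of title numbers apart, not replicates. With genotype alone, 0 of the 5 genes were called under other scalings and filters, DESeq2, limma voom, summing of samples that share a title number, and without each of the 6 libraries. With the range term the count was 1, AA467197, in DESeq2, in edgeR without a filter, and without null-labelled 2 or 3; it was 0 in edgeR with all libraries and in limma voom, and leaving out each library in turn gave 0 to 1. The settings that join that term to another choice were added after seeing the data, apart from DESeq2 and limma voom. The count between the title numbers was 3 with all libraries and 2 to 3 without each library in turn; upper quartile scaling, which moved the median of all genes from -0.01 to -0.13, gave 4, adding Duoxa1. Of 205 recomputed member values, 198 lay within 1 SD and 7 moved by more, those of Duox1, Duox2 and Duoxa2 within a title number range or without 1 library. That SD is a wide measure, not the SE given above. The 198 include AA467197 at 0.09 without null-labelled 1, against 0.66 ± 0.46 (SE). They also include Duoxa2 at 0.55 in limma voom, against -0.45, so the count does not show that values were stable. No called value changed sign. The genotype values of Duox1 (-0.72 to -0.30), Duoxa1 (-0.42 to -0.27) and AA467197 (0.09 to 1.14) kept their sign in each of 28 alternatives; those of Duox2 and Duoxa2 did not. Depth limits Duoxa2, with 0 to 61 counts per library, and Duox2.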
